A study of Mus musculus with 10 samples.

Results

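The genes described here are 6 genes of the Fc receptor system, taken from the deposited table by their symbols: Fcgr1, Fcgr2b, Fcgr3, Fcgr4, Fcer1g and Fcgrt. Each symbol matched 1 row, so they are 6 of the 30984 genes in the table, and all 6 passed the filter on low counts that left 17268 genes for testing. The libraries, 10 in all, hold messenger RNA from mouse blood. The treatment label names burn wound healing for 6 libraries, called burn here, and adds the letters NC for the other 4, called NC here. The labels do not expand NC, and although the series title names MnCl2, no sample label says which libraries, if any, came from mice given it. Genotype, strain, age and time after injury are not given in the labels, nor is it said that each library came from its own animal. The p-values therefore speak of the scatter among these libraries, which could be technical.

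Fc receptors bind the constant part of antibodies and so tie antibody to the cells of innate immunity. In mice, Fcgr1, Fcgr3 and Fcgr4 encode activating receptors for IgG that need the FcR gamma chain, encoded by Fcer1g, for signalling and for stable display at the cell surface. That chain carries an ITAM (immunoreceptor tyrosine-based activation motif), which recruits the kinase Syk. Fcgr2b encodes the inhibitory receptor, whose ITIM (its inhibitory counterpart) recruits the phosphatase SHIP1, and it is the Fc gamma receptor of B cells as well as being found on myeloid cells. Fcgrt encodes the heavy chain of the neonatal Fc receptor, which pairs with beta-2 microglobulin and carries IgG back from endosomes to the surface, sparing it from breakdown.

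On mm10, 4 of the 6 genes lie on chromosome 1. Fcgr2b (ENSMUSG00000026656, minus strand) spans chr1:170958617-170976547, Fcgr4 (ENSMUSG00000059089, plus strand) chr1:171018920-171029761, and Fcgr3 (ENSMUSG00000059498, minus strand) chr1:171051174-171064935. Fcer1g (ENSMUSG00000058715, minus strand) follows at chr1:171229572-171234365. Fcgr1 (ENSMUSG00000015947, minus strand) lies apart at chr3:96282909-96293969, and Fcgrt (ENSMUSG00000003420, minus strand) at chr7:45092990-45103851. Annotated genes overlap 4 of the 6: Gm38204 (antisense to Fcgr2b), Mir6546 (within Fcgr3), Gm26110 (within Fcgr4) and Gm45669 (antisense to Fcgrt). Mir6546 has no row among the genes analysed here, and none of the other overlapping genes exceeded 0.644 CPM in any library.

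The sequence before the start of 4 of the genes is shown because the activating receptors and the adaptor they share could be compared there. Each line gives a stretch of the RefSeq promoter table (GRCm38.p6), 5′ to 3′ on the gene's own strand, none of them inside an annotated exon of the same gene. They come from chr3:96293970-96294084 for Fcgr1, chr1:171059404-171059518 for Fcgr3, chr1:171018805-171018919 for Fcgr4 and chr1:171234366-171234480 for Fcer1g. The lines are not aligned at their right ends. The last base lies 1 base before the start in Fcgr1, 1 or 10 in Fcgr3, 7 in Fcgr4 and 17 in Fcer1g. Capitals mark the reverse complement of GAGGAA, the letters of a PU.1-type site (PU.1 is a transcription factor of myeloid and B cells), and, in Fcgr1 alone, TTCNNNGAA, the letters of a STAT-type site of interferon-inducible promoters.
Fcgr1: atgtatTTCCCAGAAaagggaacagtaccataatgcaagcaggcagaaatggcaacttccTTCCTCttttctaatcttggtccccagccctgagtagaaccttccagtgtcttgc
Fcgr3: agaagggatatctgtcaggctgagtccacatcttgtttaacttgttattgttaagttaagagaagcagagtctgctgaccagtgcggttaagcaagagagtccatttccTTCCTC
Fcgr4: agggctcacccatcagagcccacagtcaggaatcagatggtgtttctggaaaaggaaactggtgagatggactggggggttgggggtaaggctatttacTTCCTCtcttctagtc
Fcer1g: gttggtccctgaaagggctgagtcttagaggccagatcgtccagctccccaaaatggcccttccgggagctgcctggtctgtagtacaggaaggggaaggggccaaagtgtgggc

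Searched on both strands over the 250 bases before each start, GAGGAA occurred once in Fcgr1, once in Fcgr3 and once in Fcgr4, and did not occur in Fcgr2b, Fcer1g or Fcgrt. It lay 55 bases before the start of Fcgr1 and 22 before that of Fcgr4. For Fcgr3, which has 2 starts in the table, it lay 6 or 15 bases before. These letters are common: 23.25% of 32851 promoter windows of the same length held them. TTCNNNGAA, found 109 bases before the start of Fcgr1 and in no other of the 6, was in 7.02% of the windows. The 6 genes were not searched on equal terms: in Fcgr2b 187 of the 250 bases lie in annotated exons of the gene itself, against 0 to 29 in the others. The bases searched for Fcgr2b and Fcgr3 also lie inside the annotated spans of these genes. The matches describe the letters in these windows and no binding was measured.

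Library totals ran from 30677206 counts in NC 3 to 36379663 in burn 4. The labels name whole blood, lymphocyte and monocytes in different fields, and the title speaks of PBMCs. Markers of red cells, platelets and neutrophils, which are not mononuclear cells, were detected in every library beside those of monocytes, B cells, T cells and NK cells. The NC libraries were unlike one another: the summed level of 10 neutrophil markers was 5831 and 4423 CPM (counts scaled to the library size, here with TMM factors) in NC 1 and NC 4, against 556 and 924 in NC 2 and NC 3, while burn ran from 746 to 2285. The median SD of log2 CPM over genes was 0.34 in NC and 0.21 in burn. In edgeR's quasi-likelihood test none of the 17268 genes reached an adjusted p under 0.05, the smallest being 0.39. An unadjusted p under 0.05 was found for 1943 genes (11.3%), and DESeq2, which tested 18923 genes, called 77.

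None of the 6 Fc receptor genes passed the threshold, against a background of 0% of all genes called, and none did in DESeq2, where the background was 0.407%. In none of the 6 were burn and NC without overlap, a pattern shown by 2.03% of all genes. Fcgr3 and Fcer1g were lower in burn at an unadjusted p under 0.05, that is 2 of 6, where 7% of all genes were lower and 4.25% higher by the same rule. Differences (log2 of burn minus NC) were below 0 in 4 of the 6, compared with 45.3% of all genes, and their median was -0.15, compared with 0.02 over all genes. The 6 genes were chosen with earlier results of these data known, and these counts describe them without testing them as a set.

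**Figure D1:**
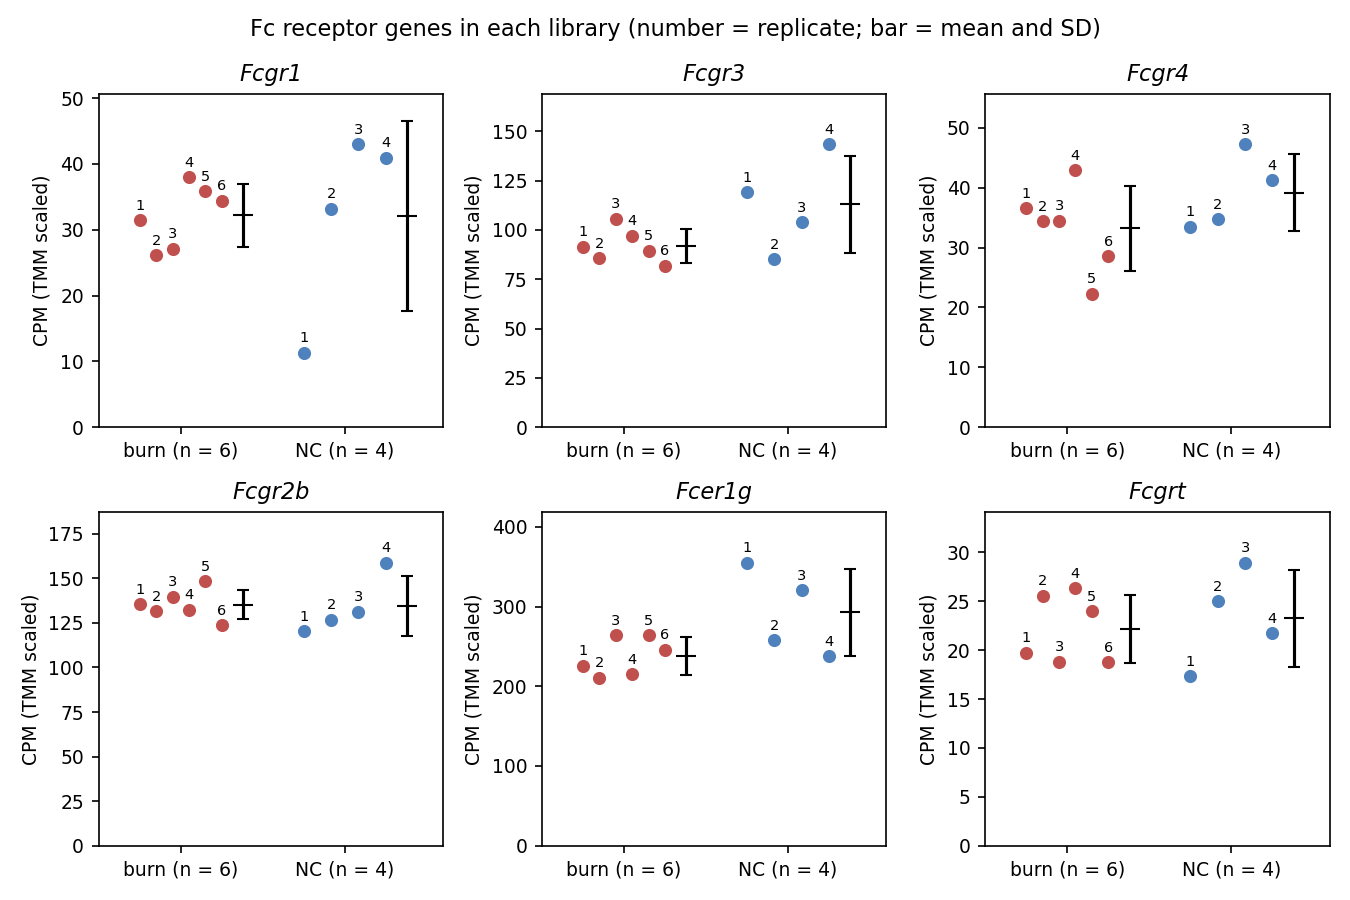
TMM-scaled CPM of the 6 Fc receptor genes in each library, with 1 panel per gene and a y axis from 0; points are libraries, burn (n = 6) beside NC (n = 4), and the bar and line show mean ± SD. The groups overlap in every panel, and NC spreads more widely than burn for Fcgr1, from 11.3 to 43.0 CPM.

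Fcgr3, the low-affinity activating receptor of myeloid and NK cells, had the lower level in burn. In burn its lowest, median and highest values were 81.8, 90.4 and 106 CPM. In NC 1 to NC 4 they were 119, 85.0, 104 and 143 CPM. NC 1 and NC 4 stood above all 6 burn libraries, and NC 2 and NC 3 lay within the burn range. The means were 91.8 ± 8.502 (SD, n = 6) in burn and 113 ± 24.7 (SD, n = 4) in NC, a log2 difference of -0.30 (SE 0.13, 95% interval -0.58 to -0.01, unadjusted p = 0.041, edgeR adjusted p = 0.43).

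The difference in Fcgr3 depended on which NC libraries entered the fit, and NC 1 and NC 4 were those with the high neutrophil marker sums. Without NC 1 and NC 4 it was -0.04 (edgeR adjusted p = 0.88). Without NC 2 and NC 3 it was -0.54 (edgeR adjusted p = 0.035), in a fit that called 26 genes higher and 349 lower of 18195. NC 1 and NC 4 held the 2 highest Fcgr3 values of the 10 libraries. The direction in which the difference moved with either pair left out therefore followed from these values. The adjusted p of 0.035 came from keeping the NC libraries highest in Fcgr3, so it is no separate support. Leaving out NC 2 alone gave -0.44. With the neutrophil marker level as a covariate it was -0.18 (unadjusted p = 0.077, edgeR adjusted p = 0.51), and with that of B cell markers -0.46 (edgeR adjusted p = 0.93). Sample quality weights in limma-voom gave -0.18 (unadjusted p = 0.22, limma adjusted p = 0.64). All 10 neutrophil markers had log2 differences below 0, beside 45.3% of all genes. Their median was -1.12, and none of the 10 passed the test. The neutrophil marker sum in NC 2 was below every burn library, and that in NC 3 was within the burn range. All 7 NK cell markers were below 0 as well, with a median of -0.85 and none past the test. NC 4 had the lowest sum of these NK cell markers, 174 CPM. The part of either cell type in the Fcgr3 level was not tested. In blood sequenced in bulk, fewer cells of a type and less RNA per cell cannot be told apart.

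Fcgr1 encodes the high-affinity IgG receptor of monocytes and macrophages and is known to be inducible by interferon-gamma. Its lowest, median and highest values in burn were 26.2, 32.9 and 37.98 CPM. In NC 1 to NC 4 they were 11.3, 33.2, 43.0 and 40.9 CPM. NC 1 lay below every other library and NC 3 and NC 4 above every burn library, so NC held both ends of the range. The means were 32.2 ± 4.78 (SD, n = 6) and 32.1 ± 14.5 (SD, n = 4), a log2 difference of 0.0034 (SE 0.28, 95% interval -0.62 to 0.62, edgeR adjusted p = 0.9965). Without NC 1 the difference was -0.28 (unadjusted p = 0.058, edgeR adjusted p = 0.64), and its sign turned with the scaling of the libraries, so no direction is given for Fcgr1.

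NC 1 also had the lowest summed level of 8 nonclassical monocyte markers, 288 CPM against 514 to 648 in the other NC libraries and 455 to 686 in burn. Its 7 classical monocyte markers summed to 4106 CPM, the highest of the 10 libraries, but by their mean log2 CPM burn 5, at 8.74, exceeded NC 1, at 8.47. The markers of this list did not move together in NC 1: F13a1 (1306 CPM) and Chil3 (1387 CPM) were the highest of all libraries there, and Ly6c2 (95.9 CPM) and Ms4a4c (82.3 CPM) the lowest. The part of these cells in the Fcgr1 level was not tested.

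Fcgr4, an activating receptor of neutrophils and of monocytes, above all the nonclassical kind, had burn values of 22.3, 34.5 and 42.9 CPM at the lowest, the median and the highest. NC 1 to NC 4 had 33.4, 34.7, 47.2 and 41.3 CPM. NC 3 was the highest library and burn 5 and burn 6 lay below every NC library. The means were 33.2 ± 7.07 (SD, n = 6) and 39.2 ± 6.39 (SD, n = 4), a log2 difference of -0.24 (SE 0.16, 95% interval -0.59 to 0.12, edgeR adjusted p = 0.60). Leaving out 1 library at a time moved this value between -0.32 without burn 4 and -0.15 without burn 5.

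Fcgr2b, the inhibitory receptor, was the steadiest of the 6. Burn libraries had 124, 134 and 148 CPM at the lowest, the median and the highest. NC 1 to NC 4 had 120.5, 127, 131 and 159 CPM. Only NC 4 lay above the burn range and only NC 1 below it, and the highest of the 10 libraries was 1.32 times the lowest. The means were 135 ± 8.29 (SD, n = 6) and 134 ± 16.8 (SD, n = 4), a log2 difference of 0.0100 (SE 0.09, 95% interval -0.19 to 0.21, edgeR adjusted p = 0.98). The interval, the narrowest of the 6, overlapped that of Fcgr3 (-0.58 to -0.01), and the genes were not tested against each other. The sign of Fcgr2b turned with the scaling, so no direction is given for it. All 8 B cell markers were above 0 in the same contrast, where 45.3% of all genes lay below 0. Their median was 0.31 and none passed the test. With the B cell marker level as a covariate, Fcgr2b was at -0.09.

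Fcer1g, the shared adaptor, had the difference furthest from 0 of the 6, next to Fcgr3. Its lowest, median and highest values in burn were 211, 236 and 264.5 CPM. In NC 1 to NC 4 they were 355, 258, 320.3 and 238 CPM. NC 1 and NC 3 stood above all burn libraries, whereas NC 2 and NC 4 lay among them. The means were 238 ± 23.9 (SD, n = 6) and 293 ± 54.4 (SD, n = 4), a log2 difference of -0.30 (SE 0.12, 95% interval -0.57 to -0.03, unadjusted p = 0.032, edgeR adjusted p = 0.41). Without NC 1 the difference was -0.19, without NC 4 it was -0.44 (edgeR adjusted p = 0.11), and with sample quality weights in limma-voom it was -0.16. With the neutrophil marker level as a covariate it was -0.29 (edgeR adjusted p = 0.49), and with that of B cell markers -0.17.

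The NC libraries above all of burn were NC 1 and NC 3 for Fcer1g but NC 1 and NC 4 for Fcgr3, so the genes had NC 1 in common. Fcer1g is also made by platelets, where it pairs with the collagen receptor. All 6 tested platelet markers had log2 differences below 0, beside 45.3% of all genes, with a median of -0.64. Their summed level was 8985, 5044, 4549 and 2273 CPM in NC 1 to NC 4 and 1998 to 4139 CPM in burn. NC 4 was lowest of the NC libraries both for these markers and for Fcer1g. NC 2, however, was above NC 3 in the marker sum and below it in Fcer1g (258 against 320.3 CPM). Burn 2, with a marker sum of 4103 CPM, had the lowest Fcer1g of the 10 libraries, 211 CPM. The part of platelets in the Fcer1g level was not tested.

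Fcgrt had burn values of 18.8, 21.8 and 26.3 CPM at the lowest, the median and the highest. NC 1 to NC 4 had 17.3, 25.03, 28.9 and 21.7 CPM. NC held both the lowest and the highest library. The means were 22.2 ± 3.48 (SD, n = 6) and 23.25 ± 4.93 (SD, n = 4), a log2 difference of -0.07 (SE 0.15, 95% interval -0.40 to 0.27, edgeR adjusted p = 0.90). Leaving out NC 3 turned it to 0.024, and no direction is given for Fcgrt. B2m, which encodes its light chain, had 4245 ± 491 CPM in burn (SD, n = 6) and 4727 ± 1048 in NC (SD, n = 4), a log2 difference of -0.15 (edgeR adjusted p = 0.75).

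**Figure D2:**
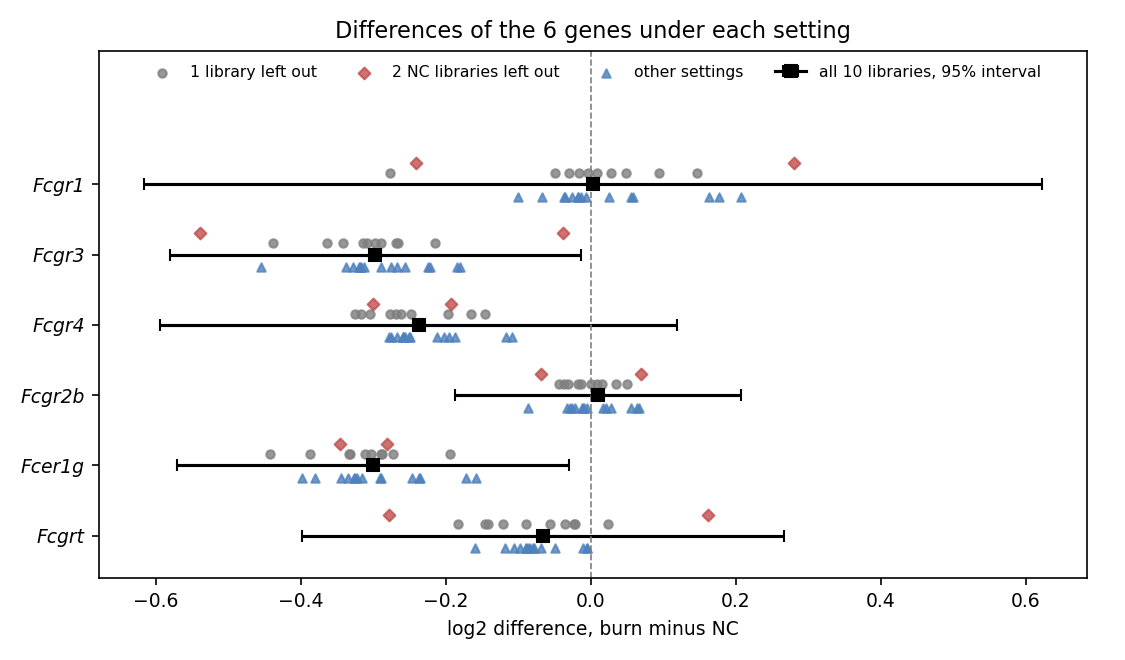
Log2 difference of burn minus NC (x axis) for the 6 Fc receptor genes; black squares and bars are edgeR's estimate from all 10 libraries with its 95% interval, grey circles leave out 1 library, red diamonds leave out 2 NC libraries, and blue triangles are other settings. Fcgr3 moves from -0.54 to -0.04 with the pair of NC libraries left out, and Fcgr1 has the widest interval, from -0.62 to 0.62.

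Levels of different genes were compared per length, in the deposited FPKM (counts per gene length and library size). In both groups the means ran in the order Fcer1g, Fcgr3, Fcgr4, Fcgr2b, Fcgr1 and Fcgrt. Fcer1g stood at 276 ± 29.4 FPKM in burn (SD, n = 6) and 327 ± 56.7 in NC (SD, n = 4), and made up 68.3% and 69.8% of the summed FPKM of the 6 genes. Fcgr3 followed at 53.6 ± 4.78 and 64.0 ± 16.4 FPKM. These ranges did not overlap each other, nor did that of Fcgr3 and that of Fcgr4 at 26.8 ± 5.71 and 30.5 ± 4.80 FPKM.

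Fcgr4 and Fcgr2b, the latter at 23.7 ± 1.39 FPKM in burn and 22.8 ± 3.67 in NC, overlapped. Fcgr4 was the higher of the pair in 5 of 6 burn libraries and 4 of 4 NC libraries. Their order depended on the length used: the deposited FPKM of these genes divide by all exon positions, which for Fcgr2b come to 5790 bases. With its longest coding transcript of 3544 bases Fcgr2b rose to 38.7 ± 2.27 and 37.2 ± 5.997, above Fcgr4. Fcgr1 at 12.6 ± 2.11 and 12.1 ± 5.497 FPKM lay below Fcgr2b without overlap. Fcgr1 and Fcgrt, the latter at 10.7 ± 1.70 and 10.8 ± 2.02 FPKM, overlapped, with Fcgr1 higher in 5 of 6 burn and 3 of 4 NC libraries. The order of their means also turned with the length: with the longest coding transcripts Fcgrt was at 12.7 ± 2.01 and 12.8 ± 2.40, above Fcgr1, whose length stayed the same.

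Ratios within a library set activating against inhibitory receptors. Fcgr3 over Fcgr2b, in FPKM, was 2.01, 2.23 and 2.52 at the lowest, the median and the highest of the burn libraries. In NC 1 to NC 4 it was 3.30, 2.23, 2.64 and 3.01. Thus 3 of the 4 NC libraries exceeded every burn library and NC 2 lay close to the burn median. On the log2 scale the ratio was 1.176 ± 0.12 in burn (SD, n = 6) and 1.47 ± 0.24 in NC (SD, n = 4). Fcgr2b and Fcgr3 share exact stretches: 44 windows of 100 bases were common to both, which is 1.14% of those of Fcgr2b and 2.70% of those of Fcgr3, and how the authors' counting treated reads from them is not given in the sources used here.

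Fcgr4 over Fcgr2b was 0.15 ± 0.37 in burn and 0.42 ± 0.21 in NC on the log2 scale. Fcgr1 over Fcgr2b was -0.92 ± 0.24 and -1.07 ± 0.80, with NC 1 at -2.25. Both depended on the gene length used: with the longest coding transcripts Fcgr4 over Fcgr2b turned to -0.56 in burn and -0.29 in NC, and Fcgr1 over Fcgr2b was -1.63 and -1.77. A change of length shifts every library alike, so it leaves the differences between the groups as they were. Fcer1g over the sum of Fcgr1, Fcgr3 and Fcgr4, the adaptor against the receptors that need it, was 1.57 ± 0.23 and 1.62 ± 0.41. In linear terms this adaptor ratio ran from 2.35 to 3.63 in burn, and NC held both extremes, 4.07 in NC 1 and 2.07 in NC 4. Without NC 1 the burn minus NC difference of Fcgr1 over Fcgr2b turned from 0.14 to -0.25. That of the adaptor ratio turned from -0.054 to 0.081 without NC 1 and to 0.013 without burn 4. No direction is therefore given for these ratios, and no test was made on any ratio.

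**Figure D3:**
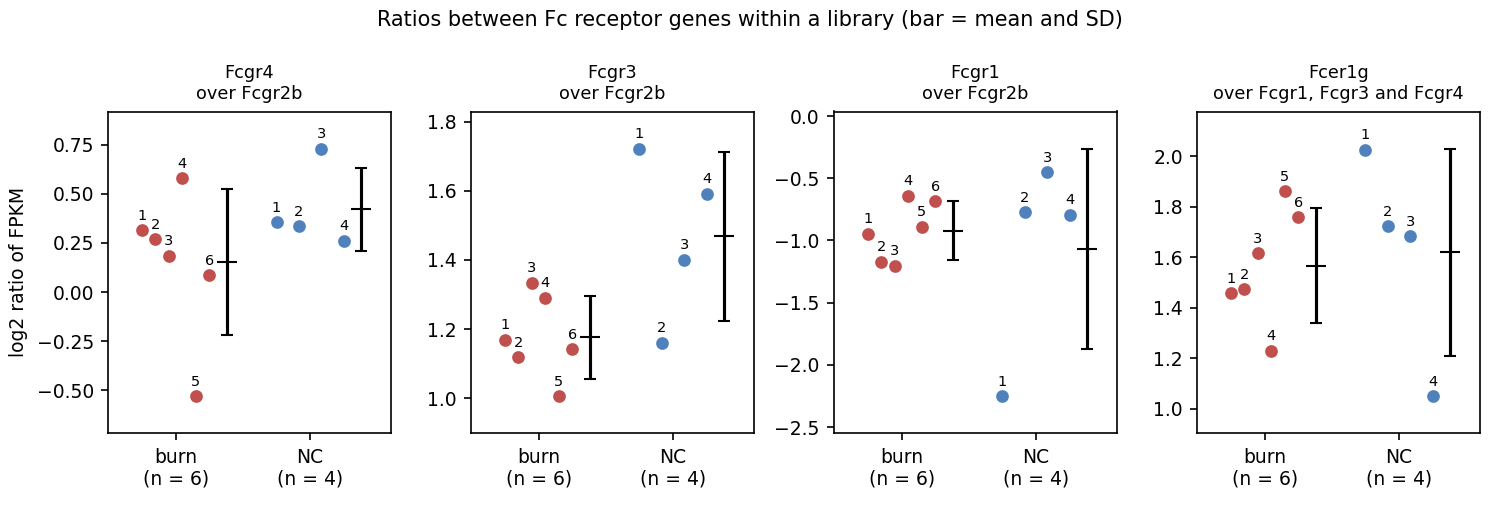
Log2 ratios of FPKM within each library for 4 pairs or sums of Fc receptor genes; points are libraries, burn (n = 6) beside NC (n = 4), and the bar and line show mean ± SD. All 4 ratios overlap between the groups, and 3 of 4 NC libraries lie above burn for Fcgr3 over Fcgr2b.

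The likeness of patterns was measured as the root mean square gap between the deviations of log2 CPM from the mean of the 10 libraries, over 10235 genes of a mean CPM of at least 5. For Fcgr3 the nearest were Pgd, an enzyme of the pentose phosphate pathway, at 0.078, Itgam, a leukocyte integrin chain, at 0.086 and Fgr, a myeloid Src-family kinase, at 0.091, where the deviations of Fcgr3 itself had a root mean square of 0.24. For Fcer1g they were Ms4a8a at 0.076, Alox5ap, which serves leukotriene synthesis, at 0.087 and Laptm4a at 0.096, against its own 0.23. Fcgr1, whose own deviations came to 0.52, had its nearest in Pparg, a nuclear receptor, at 0.17, Oas1a, an interferon-induced gene, at 0.18 and Ppfia4 at 0.19.

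Fcgr4 had no near neighbour relative to its own 0.29: Sorcs2 lay at 0.19, Gm15387 at 0.19 and Gorab at 0.20. For Fcgrt, Tubb6 was at 0.094, Iglc1 at 0.097 and Phldb3 at 0.097, against 0.24. Fcgr2b varied so little, 0.11, that 150 genes lay within 0.1 of it, the nearest being Nrros at 0.054, Vrk1 at 0.067 and Mvd at 0.069. All these genes were measured in the same libraries, and the gaps are descriptions with no test.

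**Figure D4:**
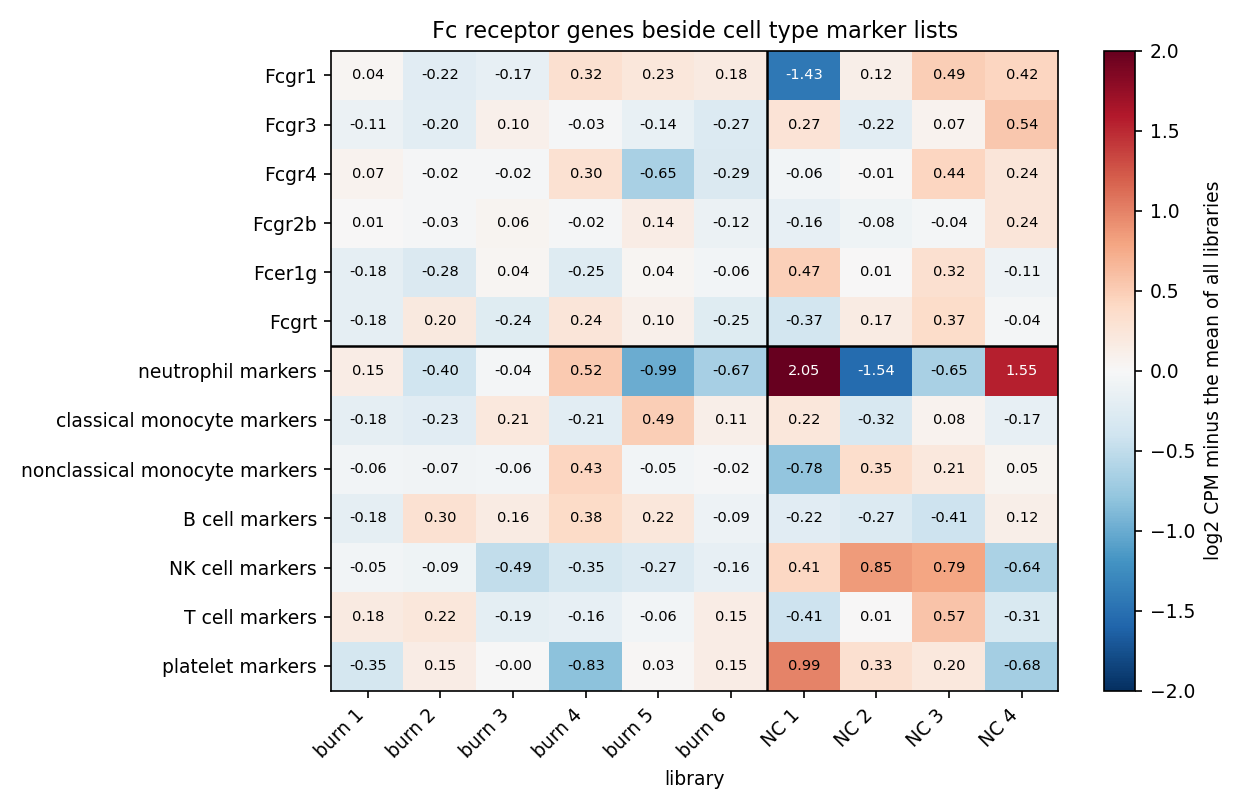
Heat map of the 6 Fc receptor genes (upper rows) and 7 cell type marker lists (lower rows) in the 10 libraries (columns); colour and printed value give log2 CPM minus the mean of all libraries, for a list the mean over its genes. NC 1 and NC 4 have the highest neutrophil values, 2.05 and 1.55, and the highest Fcgr3 values, 0.27 and 0.54, while NC 1 is at -1.43 for Fcgr1.

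In the 7 lists of genes around these receptors no gene passed the threshold, the smallest edgeR adjusted p being 0.39. Of 11 other tested Fc receptor genes, 5 lay above 0 and 6 below, with a median of -0.05. Fcer2a, the low-affinity IgE receptor of B cells, had 216 ± 40.2 CPM in burn and 148 ± 43.7 in NC (SD, n = 6 and 4), a log2 difference of 0.55 (SE 0.19, unadjusted p = 0.013, edgeR adjusted p = 0.39). Fcrl1, an Fc receptor-like protein of B cells, was at 85.2 ± 11.9 and 66.3 ± 13.4 CPM, 0.36 (unadjusted p = 0.023, edgeR adjusted p = 0.40). Pigr, which carries polymeric antibody across epithelia, was barely detected, with 0.78 ± 0.19 CPM in burn against 1.26 ± 0.21 in NC, and its groups did not overlap.

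Among 23 tested genes of activating signalling, 11 lay above 0 and 12 below, with a median of -0.06. Src, a tyrosine kinase, had 3.33 ± 0.86 and 6.005 ± 2.60 CPM, a log2 difference of -0.85 (unadjusted p = 0.017, edgeR adjusted p = 0.40). Rac1, a GTPase of phagocytosis, had 322 ± 27.6 and 421 ± 107 CPM, -0.39 (unadjusted p = 0.021, edgeR adjusted p = 0.40). Lat2, a linker adaptor, had 29.1 ± 3.27 and 24.0 ± 3.43 CPM, 0.28 (unadjusted p = 0.031, edgeR adjusted p = 0.41). Syk itself had 647 ± 65.2 CPM in burn and 601 ± 143 in NC.

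Among 10 genes of inhibitory signalling, 5 lay above 0 and 5 below, with a median of -0.0021 and none at an unadjusted p under 0.05. The smallest p were those of Ptpn11, a phosphatase, at -0.38, Dok2, an adaptor, at -0.27 and Cblb, a ubiquitin ligase, at 0.10. Inpp5d, which encodes SHIP1, had 205 ± 11.3 CPM in burn and 213 ± 16.5 in NC.

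Of 8 tested receptors other than Fc gamma receptors that pair with the FcR gamma chain, 7 lay below 0, beside 45.3% of all genes. Their median was -0.40, beside 0.02 over all genes. At an unadjusted p under 0.05, 3 were lower in burn, where 7% of all genes were lower by the same rule. Clec4d, a C-type lectin of myeloid cells, had 30.8 ± 3.88 CPM in burn and 81.5 ± 62.7 in NC, a log2 difference of -1.40 (unadjusted p = 0.0065, edgeR adjusted p = 0.39). Gp6, the platelet collagen receptor, had 89.0 ± 19.7 and 161 ± 116 CPM, -0.86 (unadjusted p = 0.033, edgeR adjusted p = 0.42). Klrb1c, an NK cell receptor, had 13.5 ± 1.58 and 18.6 ± 6.43 CPM, -0.46 (unadjusted p = 0.049, edgeR adjusted p = 0.44). In each of these 3 the groups overlapped. Clec4d had 145.5 and 124.5 CPM in NC 1 and NC 4, but 34.5 in NC 3, within the burn range. In NC 2 it had 21.3 CPM, below every burn library. Gp6 was highest in NC 1, at 327 CPM. The neutrophil, platelet and NK cell marker lists lay below 0 as well, but Klrb1c and Ncr1 belong both to the NK cell list and to these receptors. The part of these cells was not tested.

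The 3 sister adaptors of Fcer1g gave 1 difference above 0 and 2 below. Tyrobp, which encodes DAP12, had 187 ± 17.5 CPM in burn and 227 ± 35.2 in NC, a log2 difference of -0.28 (SE 0.11, unadjusted p = 0.030, edgeR adjusted p = 0.41), close in size to that of Fcer1g. Hcst was at -0.10 and Cd247, the T cell receptor zeta chain, at 0.10. Of 12 interferon-gamma inducible genes, given because Fcgr1 and Fcgr4 are known to respond to that cytokine, 7 lay above 0 and 5 below, with a median of 0.05. Ciita, the regulator of MHC class II genes, was at 0.40 (unadjusted p = 0.048, edgeR adjusted p = 0.44), Iigp1 at 0.42 and Igtp at -0.32. By mean log2 CPM the list was lowest in NC 1 (5.52) and highest in NC 3 (6.13) and NC 4 (6.05), as Fcgr1 was. Igtp, however, was highest in NC 1. Among burn libraries Fcgr1 was highest in burn 4, where the list (5.91) exceeded only that of burn 5 (5.89). The part of interferon-gamma in the Fcgr1 level was not tested.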

How the data were processed

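RNA was extracted with TRIzol and made into paired-end mRNA libraries, per the labels' protocols. The authors deposited read counts and FPKM values per gene, per the file headers, and the submitters' processing notes name mm10. Aligner, counter and strand setting: not given in the sources used here. For the 6 Fc receptor genes, the deposited FPKM equalled counts over library total and all exon bases of the gene in GENCODE mouse release 21. Counts were filtered by filterByExpr (minimum count 10), scaled by TMM and fitted in edgeR 4.0.16 (R 4.3.3) as burn against NC with no covariate, adjusted by Benjamini-Hochberg over 17268 genes at 0.05. Low counts left out 13716 genes. Alternatives used DESeq2 1.42.0 and limma 3.58.1, other scalings, filters, pseudocounts (1 and 0.1), covariates and left-out libraries. No libraries agreed within sampling noise. The fit was tested on simulated data. The members and lists were chosen with earlier results of these data known. Named genes were the 6 members, up to 3 genes of smallest p per list where none passed, and 3 nearest patterns per member; Pigr's groups, Syk, Inpp5d, single monocyte, macrophage and connective tissue markers and the C1q genes were named after their values were seen.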

Additional observations from a re-analysis of the deposited data

Results flagged for a closer look

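In the deposited FPKM, Fcgr2b stood apart in NC 4, at 28.25 FPKM, where the nearest other NC library had 21.3. The gap was 0.894 of the range of the 4 libraries, above Dixon's critical value of 0.829. Of 44 groups of values checked this was the 1 that passed, and chance gives about 1 in 20. In CPM the same library was also the highest, at 159, but did not pass.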

How the results depend on the processing

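Fcgr3, Fcgr4 and Fcer1g kept their direction under all 27 alternatives. All 6 genes stayed short of the threshold except Fcgr3 without NC 2 and NC 3 (-0.54, edgeR adjusted p = 0.035), the 1 member then past it. That fit called 26 genes higher and 349 lower of the 18195 it tested.

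Fcgr1 turned to -0.018 with RLE scaling, -0.014 upper quartile, -0.037 no filter, -0.0065 counts of 10 in all libraries, -0.017 DESeq2, -0.026 without haemoglobin, -0.068 neutrophil covariate, -0.036 B cell covariate and -0.24 without NC 1 and NC 4. Fcgr2b turned to -0.0125, -0.011, -0.029, -0.0048, -0.010 and -0.021 under the first 6 of these, -0.086 with the B cell covariate and -0.069 without NC 2 and NC 3, where Fcgrt was 0.16.

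Numbers did not pair the libraries: deviations of same-numbered libraries correlated at -0.047, -0.038, -0.074 and 0.34, and 2 of 8 correlated best with their own number. The replicate block fit on libraries 1 to 4 called no gene and gave -0.026 for Fcgr2b, 0.03 Fcgr1, -0.27 Fcgr3, -0.11 Fcgr4, -0.38 Fcer1g and -0.07 Fcgrt; without the block, chosen after seeing the data, the same libraries gave -0.10 for Fcgr1 and -0.033 for Fcgr2b.

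Leaving out 1 library at a time gave -0.44 to -0.19 for Fcer1g, -0.28 to 0.15 for Fcgr1, -0.044 to 0.050 for Fcgr2b, -0.44 to -0.21 for Fcgr3, -0.32 to -0.15 for Fcgr4 and -0.18 to 0.024 for Fcgrt.

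Genes called higher and lower were 12 and 65 in DESeq2, 0 and 4 with quality weights, 1 and 0 in limma on log2(FPKM + 1) and with 0.1, 0 and 27 without NC 1 and NC 4, 26 and 349 without NC 2 and NC 3, and from 0 to 10 lower, with 0 higher, leaving out 1 library (10 without burn 1, 3 without NC 4). The cause was not tested. With 4 NC libraries that spread widely, differences of the size seen here did not pass the test.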

Other observations

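C1q, the first component of the classical complement pathway, also binds the constant part of IgG, and its 3 chains were on the tissue macrophage marker list. All 3 were at low levels. C1qc had 0.46 ± 0.23 CPM in burn (SD, n = 6) and 1.54 ± 0.74 in NC (SD, n = 4), a log2 difference of -1.75 (SE 0.42, unadjusted p = 0.0013, edgeR adjusted p = 0.39), and its groups did not overlap. C1qa was at 0.45 ± 0.32 and 1.17 ± 0.23 CPM and C1qb at 0.62 ± 0.44 and 1.46 ± 0.57 CPM, both with overlapping groups. None of the 3 passed the test. Of the 6 tested genes of that list, 5 lay below 0, and Adgre1, the macrophage and monocyte gene for F4/80, was at 0.09. All 7 genes of the endothelium and connective tissue list lay below 0 as well, beside 45.3% of all genes. Their median was -0.55 and none passed the test. Among them Col1a1 was at -2.14, Col3a1 at -2.71 and Lum at -2.57. Burn 1 was the highest burn library for these 3, as it was for C1qa and C1qb. It was not for the other genes of that list or for C1qc. There the highest was burn 5 for Kdr and Dcn, burn 2 for Pecam1 and burn 6 for Cdh5 and C1qc. The part of admixed tissue in the C1q levels was not tested.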
